A study of Homo sapiens with 4 samples.

Results

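The genes of 10 surface antigens of acute myeloid leukemia (AML) cells were examined for H3K27Ac occupancy: CD33, CLEC12A, CD47, CD200, HAVCR2, CD96, IL1RAP, CD38, CD44 and CD34. The set was fixed by name, with no threshold on a measured value but with earlier results of these data known, and it makes up 10 of the 20037 protein-coding genes of the RefSeq GRCh38.p14 annotation. H3K27Ac was profiled in MOLM13 cells, an established human AML line with MLL1-r, in 1 control library and in 1 library of cells exposed for 16 h to SNDX-50469 at 500 nM. The labels give the treatment of the control library as none, while the treatment description names DMSO as the other arm. Both libraries are ChIPmentation libraries of the same cell line, in which the Tn5 transposase adds adapters to the precipitated DNA. The input libraries, 1 for each condition, were left out. Since there is a single library of each kind, a difference has no replicate check, no test was made, and the Wilson 95% intervals given below cover counting error only.

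H3K27Ac is laid down by histone acetyltransferases at promoters and enhancers in use. The length of a gene covered by H3K27Ac peaks describes where the mark was called, and it depends on the cutoff of each list. SNDX-50469 is a Menin inhibitor (MI). Menin tethers MLL1 and MLL1 fusion proteins to chromatin, and MI treatment of AML cells with MLL1-r releases them from their targets. The proteins of the 10 genes sit on the plasma membrane of leukemic blasts or leukemia stem cells, where several of them are used as markers in flow cytometry or as targets of antibodies and engineered T cells. CD33 and CLEC12A are inhibitory receptors of myeloid cells. CD47 and CD200 are ligands through which a cell restrains macrophages and other myeloid cells, while HAVCR2 and CD96 are immune receptors. IL1RAP is the shared co-receptor of interleukin 1 family receptors. CD38 is a NAD-consuming ectoenzyme, CD44 a hyaluronan receptor, and CD34 a sialomucin of hematopoietic progenitors.

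The promoters of 4 genes are shown because their 250 bases before the RefSeq start site were covered by H3K27Ac over the whole 250 bp in control, and because the peaks after SNDX-50469 treatment differ between them. The sequences are from RefSeq, build GRCh38.p14, written 5′ to 3′ on the strand of the gene. Capitals mark matches on either strand to GGGCGG, the core of the GC box, or to CCAAT. CD47 (chr3:108091032-108091281, minus strand) and IL1RAP (chr3:190513835-190514084, plus strand) still had a peak over part of this stretch, and CD38 (chr4:15778078-15778327, plus strand) and CD44 (chr11:35138921-35139170, plus strand) had none.
CD47: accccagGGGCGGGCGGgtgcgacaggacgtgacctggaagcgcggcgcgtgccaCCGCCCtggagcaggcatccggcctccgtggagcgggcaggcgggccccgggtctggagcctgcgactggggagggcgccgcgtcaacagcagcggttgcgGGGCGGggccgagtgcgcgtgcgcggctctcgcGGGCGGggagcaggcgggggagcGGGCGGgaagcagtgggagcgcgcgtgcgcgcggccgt
IL1RAP: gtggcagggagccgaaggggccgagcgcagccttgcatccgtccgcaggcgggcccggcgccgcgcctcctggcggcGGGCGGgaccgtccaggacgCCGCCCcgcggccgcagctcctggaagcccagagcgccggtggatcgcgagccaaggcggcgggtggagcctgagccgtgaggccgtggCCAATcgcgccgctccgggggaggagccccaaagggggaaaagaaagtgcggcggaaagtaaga
CD38: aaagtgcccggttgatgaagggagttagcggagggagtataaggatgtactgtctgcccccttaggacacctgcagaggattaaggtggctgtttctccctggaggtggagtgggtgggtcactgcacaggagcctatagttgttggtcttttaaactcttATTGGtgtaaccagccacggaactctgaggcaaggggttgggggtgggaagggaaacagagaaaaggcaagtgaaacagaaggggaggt
CD44: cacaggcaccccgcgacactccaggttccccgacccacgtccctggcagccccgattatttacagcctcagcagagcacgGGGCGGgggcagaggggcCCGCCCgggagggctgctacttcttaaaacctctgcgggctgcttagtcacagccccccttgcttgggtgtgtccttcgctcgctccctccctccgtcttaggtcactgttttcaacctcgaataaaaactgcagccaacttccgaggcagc

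Of these 250 bases, 171 were covered after treatment at CD47, 37 at IL1RAP and 0 at CD38 and CD44. The CD47 promoter held 39 CpG dinucleotides and 6 matches to GGGCGG, with a GC content of 79.6%. IL1RAP held 33 CpGs, 2 matches to GGGCGG and 1 to CCAAT, with a GC content of 74.8%. CD44 held 15 CpGs and 2 matches to GGGCGG (GC content 62.4%), and CD38 held 3 CpGs, 1 match to CCAAT and no GGGCGG (52.4%). Over the 15843 promoters of the table the median was 17 CpGs and a GC content of 62.4%, 56.0% of promoters held GGGCGG and 34.5% held CCAAT. Both promoters with a remaining peak had more CpGs than the median promoter, and the other 2 had fewer. These 4 were picked in part because their peaks after treatment differ, and a link with CpG number was not tested. Among the 9 antigen genes in the table, the other 5 held from 0 CpGs (CLEC12A) to 14 (CD34). Away from the 4 promoters shown, GGGCGG was found at CD33 and CD34 and CCAAT at CLEC12A. Of the 3 further motifs searched, TATAAA was found at CD200, GAGGAA (which contains the core bound by ETS factors such as PU.1) at CD33, CLEC12A, CD200 and CD34, and TGTGGT (a core bound by RUNX factors) at CLEC12A and CD96. These motifs occur in 9.23%, 23.4% and 8.89% of all promoters, respectively. Matches on both strands were counted, overlapping ones included, and a match is not evidence of binding.

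In control 245875 peaks (median width 340 bp) covered 224 Mb of the genome, and after SNDX-50469 treatment 54061 peaks (median width 295 bp) covered 29.4 Mb. Read totals are not given. Background levels recovered from the lists were 0.877 and 0.735 fragments per position, and the smallest −log10 p was 2.68 for control peaks and 3.93 for SNDX-50469 peaks, so a peak had to be stronger against its own background to enter the SNDX-50469 list. The antigen genes lie on chromosomes 1, 3, 4, 5, 11, 12 and 19, where 6.68% to 14.4% of the control covered length was also covered after treatment. Chromosome 8, which stood apart with 19.3%, holds none of them. Within 5 kb of the 5′ end, control peaks were present at 10 of 10 myeloid genes fixed as markers of the cell line, including SPI1, CEBPA, CSF1R and MPO, although FCGR1A had just 113 bp. They were also present at 2 of 3 T cell genes (CD3D with 7681 bp), 1 of 3 erythroid genes (KLF1) and 2 of 3 epithelial genes (CDH1 and KRT8, at 322 and 305 bp). The median covered length there was 7912 bp for the myeloid genes, against 1065 bp for the T cell, 0 bp for the erythroid and 305 bp for the epithelial genes.

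Covered length was then measured over each gene body with flanks of 5 kb, and divided into the part within 5 kb of the outermost annotated 5′ end and the rest. A control peak was present at 9 of the 10 antigen genes, and CD200 had none in either list. Over all genes with a known strand, 21.3% had no control peak. All 9 genes had a shorter covered length following SNDX-50469 treatment, as did 98.2% of all genes with a control peak, so this count is close to that of the genome. Summed over the antigen genes, the covered length fell from 150313 to 4922 bp. With the −log10 p cutoff of the SNDX-50469 list applied to both lists, it fell from 75932 to 4922 bp. Of the 150313 bp in control, 4393 bp or 2.92% was also covered after treatment, called the kept share below, against 11.5% pooled over all genes. IL1RAP alone held 73175 bp of the control length, and without it the kept share was 2.20%. No length was kept at 5 of the 9 genes (CLEC12A, CD44, CD38, HAVCR2 and CD34), or 55.6%, beside 44.7% of all genes with a control peak. The median kept share was 0 over the 9 genes and 2.41% over all genes. In another setting, weak control peaks were removed until the control list covered no more length than the SNDX-50469 list. The smallest −log10 p of the control list was then 10.0, against 3.93 in the untrimmed SNDX-50469 list. The strongest control peak at the antigen genes had 9.06, so no control peak was left there. Any SNDX-50469 peak then made a gene longer, and 5 genes (CD33, CD47, CD96, IL1RAP and CD34) had a peak in that list alone. The direction at the antigen genes thus cannot be read from this setting. Over all genes it left a control peak at 17.4% and gave a longer covered length after treatment at 39.2%, so this was not limited to the antigen genes.

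**Figure D1:**
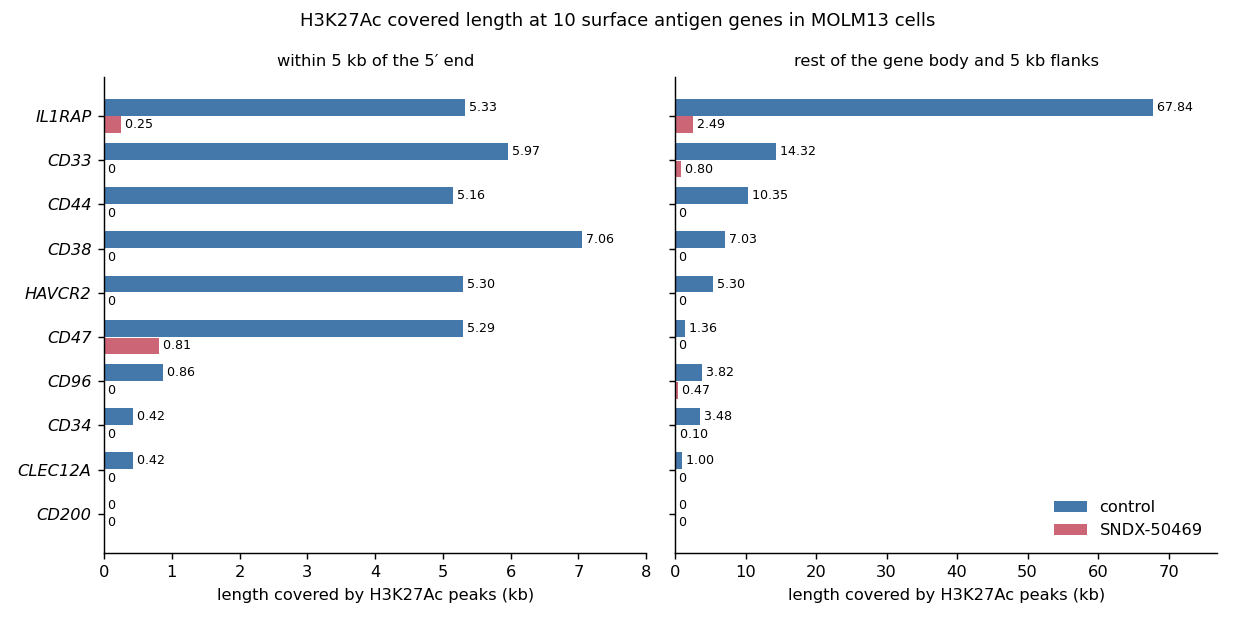
Length covered by H3K27Ac peaks (kb, horizontal axes starting at 0) at the 10 antigen genes in the control (blue) and SNDX-50469 (red) lists, within 5 kb of the 5′ end (left) and over the rest of the gene body and 5 kb flanks (right, another scale), 1 library each. In control 6 genes had over 5 kb covered near the 5′ end, and after treatment CD47 and IL1RAP still had a peak there.

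The summed values of the antigen genes lay furthest from those of all genes near the 5′ ends. In control, 9 of 10 had a peak within 5 kb of the 5′ end, beside 67.3% of all genes. After SNDX-50469 treatment this fell to 2 of 10, CD47 and IL1RAP, beside 37.4% of all genes. The same 2 genes were covered there in both lists, beside 36.1% of all genes. The summed covered length within this distance was 35804 bp in control and 1064 bp after treatment, and all of the latter lay on control peaks. The kept share near the 5′ ends was therefore 2.97%, against 20.4% pooled over all genes. Over the rest of the gene bodies and flanks the covered length fell from 114509 to 3858 bp with 2.91% kept, against 7.88% over all genes. Within 1 kb of the 5′ ends the kept shares were 10.2% for the antigen genes and 34.2% for all genes. With the −log10 p cutoff of the SNDX-50469 list applied to both lists, they were 5.79% and 26.9% within 5 kb of the 5′ ends, and 5.51% and 13.2% over the rest.

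The strength of the control peaks near the 5′ ends was set beside these shares. At 6 antigen genes (CD38, CD33, IL1RAP, HAVCR2, CD47 and CD44) at least 5 kb of the 10 kb window was covered in control, and 4 of the 6 kept none. CD33 is among the 4 by its outermost 5′ end, while 117 bp was kept around its RefSeq promoter start. Among the 4343 genes with as much coverage near the outermost 5′ end, 18.7% kept none and the pooled kept share was 24.1%. Their strongest control peak in the window had a median −log10 p of 8.92, whereas at the 6 antigen genes it lay between 4.32 (CD44) and 6.16 (IL1RAP). Of the 681 genes within this range of strength, 54.2% kept none, and the pooled kept share was 4.51%, beside 3.12% for the 6 antigen genes. For 3 of these genes (CD38, HAVCR2 and CD44) the whole covered length in control was between 10 and 20 kb. None of it was kept at the 3, beside 19.6% of the 2854 genes with such a length, whose median kept share was 9.27%. These classes of length and strength were chosen after the values had been seen, and the part of peak strength in the lower kept shares was not tested.

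**Figure D2:**
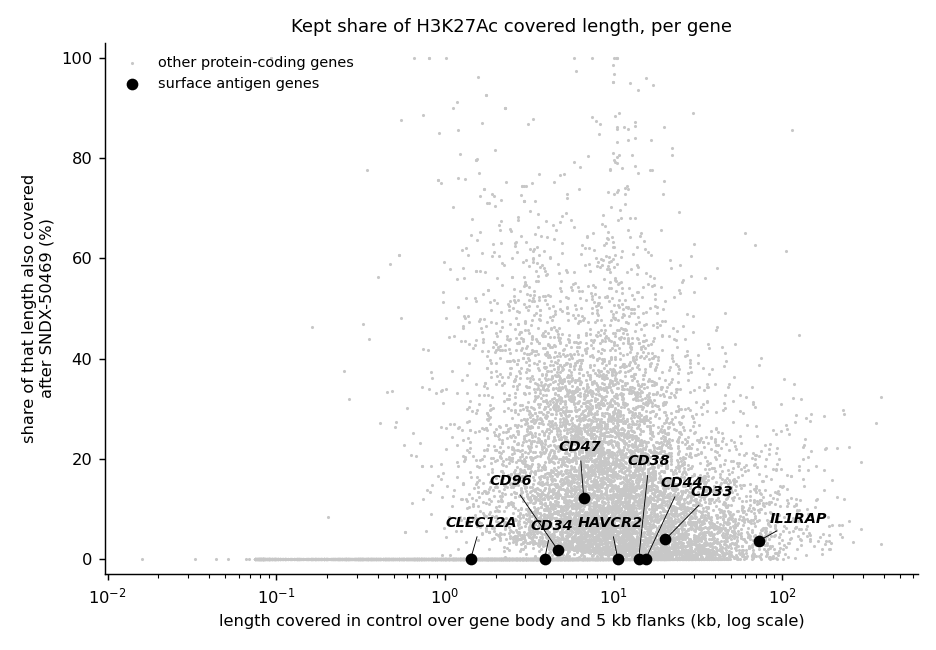
Each point is a protein-coding gene with a control peak, placed by its control covered length with 5 kb flanks (kb, log axis) and by the percent of it also covered after SNDX-50469 treatment. Of the antigen genes (black), 5 lie at 0, and CD47 has the highest share at 12.3%.

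Counted by peaks, 181 control peaks and 10 SNDX-50469 peaks touched the antigen genes or their flanks. Of the control peaks 7 shared at least 1 bp with a SNDX-50469 peak, which is 3.87% (1.89 to 7.77), against 8.24% of the whole control list. The 7 had a median width of 3107 bp and the others 388 bp. Of the 181 peaks, 30 had a −log10 p above the smallest value of the SNDX-50469 list, and 5 of these 30 were kept, or 16.7%. In the whole control list 18.5% of peaks were above this value, a share near the 16.6% at the antigen genes, and 28.4% of those were kept. A −log10 q of at least 5 was reached by 2 of the 181 control peaks, 1 at IL1RAP and 1 at CD33, and by none of the 10 peaks after treatment, beside 3.77% and 1.74% of the peaks in the whole lists.

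The myeloid receptors CD33 and CLEC12A differed widely in control. CD33, a sialic acid-binding lectin with inhibitory motifs in its tail, lies on chromosome 19 from 51211076 to 51240016 on the plus strand. It had 23 control peaks covering 20288 bp, which is 52.1% of the gene and its flanks, and 3 SNDX-50469 peaks covering 798 bp, with 3.93% kept. Its strongest control peak, from 51239889 to 51246465 (6577 bp, −log10 q 6.03), crosses the 3′ end of the gene. It lies mostly beyond that end and reaches the 5′ end of the neighbouring SIGLECL1. SNDX-50469 peaks of 330 and 372 bp lie within it, both beyond the end of CD33. Without flanks the kept share of CD33 was 0.962%. The next strongest control peak, from 51225101 to 51228207 (3107 bp, −log10 q 4.65), begins 21 bp after the RefSeq promoter start at 51225080, which is inside the annotated gene body. A SNDX-50469 peak of 117 bp, from 51225958 to 51226074, lies within that peak. At the outermost 5′ end 5966 bp was covered in control and none after treatment. Taken from the RefSeq promoter start instead, the same distance held 6793 bp in control and 117 bp after treatment, with 1.72% kept.

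CLEC12A, a C-type lectin receptor found on AML blasts and on leukemia stem cells, lies on chromosome 12 from 9951268 to 10006150 on the plus strand and overlaps CLEC1B. It had 6 control peaks covering 1421 bp, which is 2.19% of the gene and its flanks, and no SNDX-50469 peak. The widest of the 6 was 665 bp. Near the outermost 5′ end 422 bp was covered in control, and near the RefSeq promoter start at 9971409 it was 743 bp. The nearest control peak lay 745 bp from that start and the nearest SNDX-50469 peak 55395 bp from it. None of the 6 peaks had a −log10 p above the smallest of the SNDX-50469 list.

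Among the ligands and immune receptors, CD47 had the highest kept share of the 10 genes. CD47, which signals to SIRPA on macrophages to prevent engulfment, lies on chromosome 3 from 108043091 to 108091031 on the minus strand. It had 8 control peaks covering 6653 bp, of which 5295 bp lay within 5 kb of the 5′ end. After SNDX-50469 treatment 2 peaks covered 815 bp, and all of it lay near the 5′ end, where the kept share was 15.4% (12.3% over the gene and its flanks). A single control peak of 4653 bp, from 108089671 to 108094323 (−log10 q 3.61), spans the start site. Within it the SNDX-50469 peaks lay on both sides of the start, 340 bp wide with its near edge 80 bp upstream, and 475 bp wide from 443 to 917 bp downstream. By number 1 of 8 control peaks was kept, 12.5% (2.24 to 47.1).

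CD200, the ligand of the inhibitory receptor CD200R1, lies on chromosome 3 from 112332573 to 112362812 on the plus strand and was the antigen gene with no peak in either list. The nearest control peak lay 9599 bp from its RefSeq promoter start at 112333156 and the nearest SNDX-50469 peak 15879 bp from it. CD96, a receptor of T and NK cells that binds PVR, lies on chromosome 3 from 111542197 to 111665996 on the plus strand and overlaps ZBED2. It had 7 control peaks covering 4680 bp and 1 SNDX-50469 peak of 467 bp, of which 83 bp lay on a control peak (1.77% kept). Near the 5′ end the values were 862 and 0 bp. The widest CD96 control peak, 2711 bp from 111665205 to 111667915, lies across the 3′ end. The SNDX-50469 peak, from 111555391 to 111555857, lies 13.2 kb into the gene.

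HAVCR2, an inhibitory receptor that binds LGALS9 and is found on exhausted T cells and on leukemia stem cells, lies on chromosome 5 from 157085832 to 157109044 on the minus strand. It had 15 control peaks covering 10599 bp, split evenly between the 5′ end (5296 bp) and the rest (5303 bp), and no SNDX-50469 peak. Its strongest control peak, 831 bp from 157101078 to 157101908 (−log10 q 4.24), lies 7.14 kb into the gene. The peak at the start site, from 157108891 to 157110215 (1325 bp), had a −log10 q of 2.26. HAVCR2 had 6 control peaks with a −log10 p above the smallest of the SNDX-50469 list, and none of the 6 was kept.

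**Figure D3:**
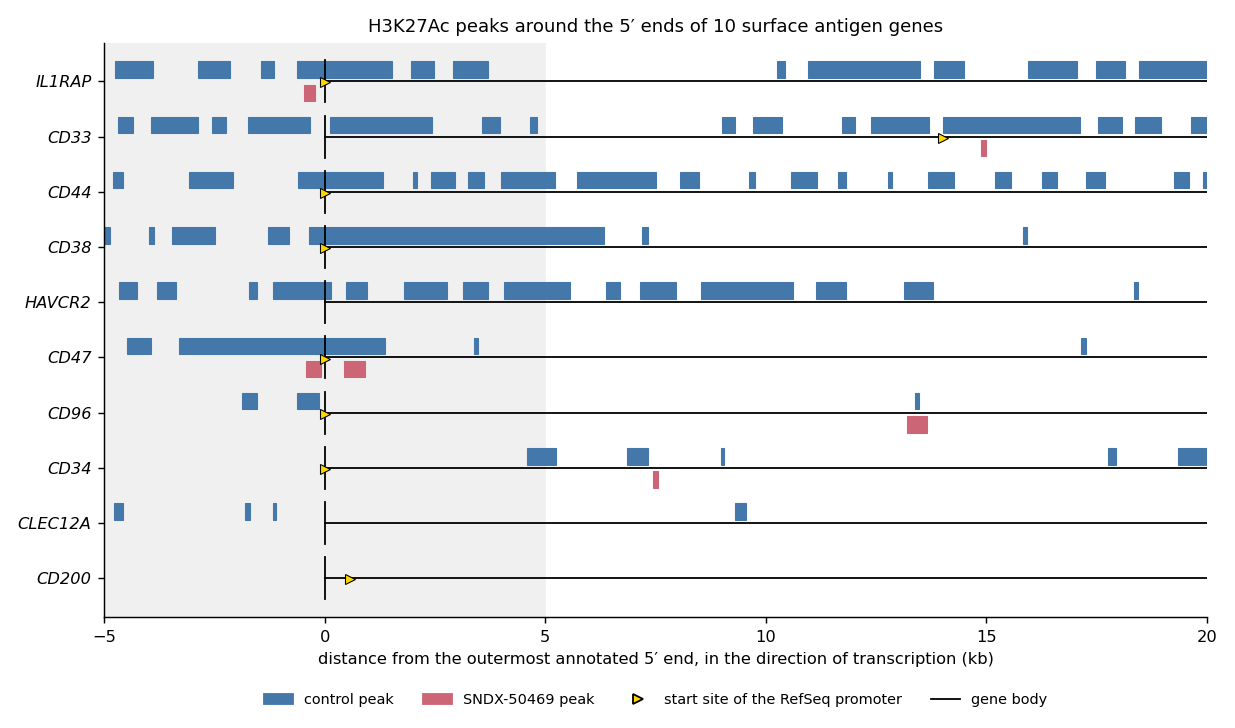
Control (blue) and SNDX-50469 (red) peaks around the 10 genes, drawn to scale from 5 kb before to 20 kb after the outermost annotated 5′ end in the direction of transcription. Shading marks the 5 kb on each side of the 5′ end and triangles the RefSeq promoter starts within the range, and in the shaded area red peaks occur at CD47 (2) and IL1RAP (1).

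IL1RAP, the co-receptor that receptors of the interleukin 1 family need to signal, had the longest H3K27Ac coverage of the set. It lies on chromosome 3 from 190514085 to 190659750 on the plus strand. In control 67 peaks covered 73175 bp, which is 47.0% of the gene and its flanks. After SNDX-50469 treatment 3 peaks covered 2740 bp, and 3.69% was kept. The IL1RAP peaks were spread along the gene body, with 67845 bp away from the 5′ end against 5330 bp near it. The kept shares in these stretches were 3.61% and 4.67%. By number 3 of 67 control peaks were kept, 4.48% (1.53 to 12.4), and 12 of the 67 had a −log10 p above the smallest of the SNDX-50469 list.

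The strongest and widest peak of the set was an IL1RAP domain of 14787 bp from 190611799 to 190626585, which lies 97.7 to 112.5 kb from the 5′ end and inside the gene body. Its −log10 q was 7.01 and it ranked 4771 of the 245875 control peaks by −log10 p. A SNDX-50469 peak of 2372 bp, from 190617680 to 190620051, lies within this domain. It has a −log10 q of 2.84 and ranks 4381 of the 54061 peaks of its own, much shorter list. It makes up most of the covered length left at IL1RAP. The IL1RAP start site was covered in control by a peak of 2143 bp from 190513468 to 190515610 (−log10 q 4.29). A SNDX-50469 peak of 249 bp remained there, with its near edge 214 bp upstream of the start.

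**Figure D4:**
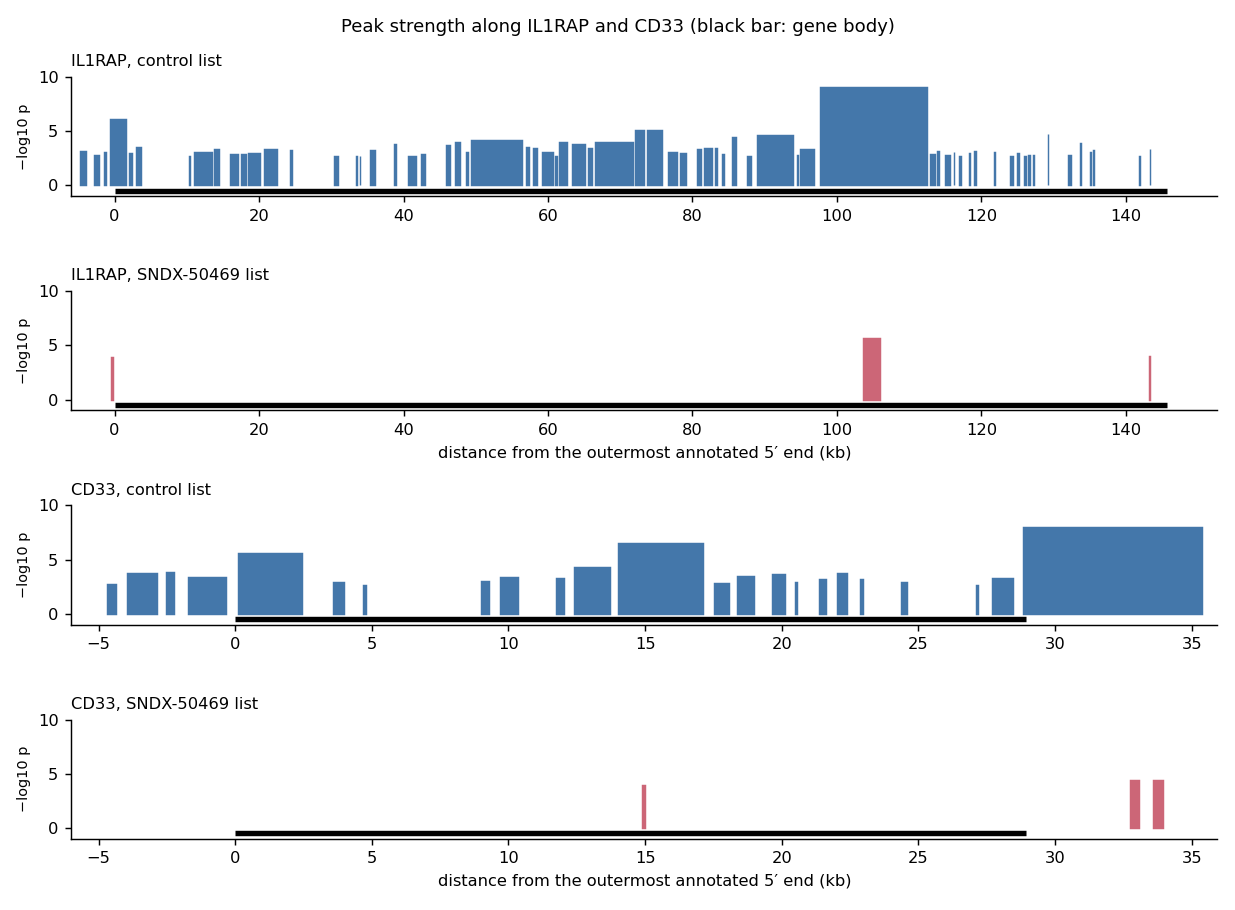
Peaks along IL1RAP (upper panels) and CD33 (lower panels) in the control (blue) and SNDX-50469 (red) lists, placed by distance from the outermost 5′ end (kb), with height giving the −log10 p within the peak's own list and the black bar the gene body. Heights are relative to each library's own background and are not comparable between lists. The IL1RAP domain 97.7 to 112.5 kb from the 5′ end and the CD33 peak that crosses the 3′ end and lies mostly beyond it each hold shorter SNDX-50469 peaks.

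The remaining genes encode an ectoenzyme, an adhesion receptor and a progenitor antigen. CD38, on chromosome 4 from 15778328 to 15853232 on the plus strand, had the most coverage near its 5′ end, 7059 bp or 70.6% of the window, and 14090 bp in all in 11 control peaks. It had no SNDX-50469 peak, and 1 of the 11 control peaks had a −log10 p above the smallest of the SNDX-50469 list. The CD38 peak at the start site, from 15777968 to 15784662, was 6695 bp wide with a −log10 q of 3.13. A further control peak of 4048 bp, from 15806617 to 15810664, lies 28.3 kb into the gene. The SNDX-50469 peak nearest to the CD38 start was 34811 bp away.

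CD44, on chromosome 11 from 35139171 to 35232402 on the plus strand, had 38 control peaks covering 15506 bp and no SNDX-50469 peak, so that 0 of 38 were kept (0 to 9.18%). This interval includes the 8.24% of the whole control list. Of the 38 peaks, 3 had a −log10 p above the smallest of the SNDX-50469 list. Near its 5′ end 5155 bp was covered in control, and over the rest 10351 bp. The CD44 peaks had a median width of 330 bp, near the 340 bp of the whole control list. The widest was 1944 bp, from 35138560 to 35140503 over the start site (−log10 q 2.60). The nearest SNDX-50469 peak lay 74341 bp from the start. CD34, on chromosome 1 from 207880972 to 207911125 on the minus strand, had no control peak within 4582 bp of its start site. Its 6 control peaks covered 3901 bp, of which 419 bp lay within 5 kb of the 5′ end. The 1 SNDX-50469 peak at CD34, 102 bp from 207903577 to 207903678, lay on none of them. With the −log10 p cutoff of the SNDX-50469 list applied to both lists, CD34 had 75 bp in control and 102 bp after treatment, so its direction turned.

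Other surface antigens used for AML cells or leukemia stem cells were taken as a list of 20 genes. Of these, 17 had a control peak, all 17 had a shorter covered length after SNDX-50469 treatment and 8 (47.1%) kept none. Over all genes with a control peak 98.2% were shorter and 44.7% kept none, so both counts are near those of the genome. Near the 5′ end 15 were covered in control and 6 in both lists, beside 67.3% and 36.1% of all genes. Their pooled kept share was 7.49% and their median 3.21%, against 2.92% and 0 for the 10 antigen genes and 11.5% and 2.41% for all genes. CD70 held 9482 of the 16365 bp kept, and without it the pooled share was 3.42% and the median 1.61%, so most of the gap in the pooled share lay at this 1 gene. The longest control lengths were at the tetraspanin genes CD82 (31897 bp, 0 after treatment) and CD9 (27922 and 2259 bp) and at the NK cell receptor gene CD244 (23545 and 762 bp). The highest kept shares were at CD70, the ligand of CD27, with 54.6% of 17369 bp, at the adhesion receptor gene ADGRE5 with 8.32% and at CD9 with 8.09%. CD276, IL3RA and CD99 had no peak. IL3RA lies and CD99 begins within the first 2.7 Mb of X, where neither list holds a peak, so their 0 was not read as absence of the mark.

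Ligands and binding partners of the antigens formed a list of 14 genes. Of these, 11 had a control peak, 10 (90.9%) had a shorter covered length after treatment and 6 (54.5%) kept none. Over all genes with a control peak these shares were 98.2% and 44.7%, so the counts say little about the partners. Their pooled kept share was 16.2% and their median 0, against 11.5% and 2.41% over all genes. The longest control lengths and most of the kept length were at 3 genes. PECAM1, a partner of CD38, had 60578 bp in control and 10696 bp after SNDX-50469 treatment (17.7% kept). SIRPA, the receptor of CD47, had 45712 and 9159 bp (19.7% kept), and near its 5′ end 65.1% was kept, against 15.4% at CD47. HMGB1, a ligand of HAVCR2, had 20375 and 8282 bp (33.5% kept). HMMR, which binds hyaluronan as CD44 does, kept 23.3% of 9308 bp. CEACAM1, a further partner of HAVCR2, went the other way, from 89 to 119 bp. LGALS9, PVR, IL1B and CD200R1 had 5275, 9232, 12761 and 6374 bp covered in control with none of it kept, and IL1RL1 and THBS1 were among the genes with no peak in either list.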

How the data were processed

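H3K27Ac ChIPmentation was analysed in MOLM13 cells, 1 control and 1 SNDX-50469 library. The submitters' processing notes list Trim Galore 0.6.5, Bowtie2 2.3.4.2, Picard 2.9.0, MACS2 2.1.2 and build GRCh38 without roles, while the supplementary methods name TopHat2, hg38, diffReps and ROSE. Options of the caller and use of the input libraries are not given in the sources used here. The authors deposited 1 broad peak list per library, not pooled. For each peak the authors give a ratio (fold over the background of its own library, averaged over the peak), a −log10 p, a −log10 q and a score, which is 10 times the deposited −log10 q without decimals and was not used. These values are not scaled between libraries, so positions were compared between lists and strengths only within a list, apart from the cutoffs.

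Python 3.11.15 with numpy 2.4.6, pandas 2.3.3, scipy 1.17.1 and matplotlib 3.10.9 was used. Peaks were intersected with RefSeq GRCh38.p14 genes, with a minimum overlap of 1 bp. Strand was known for 19675 of 20037 genes, for 15842 from the RefSeq promoter table and for 3833, HAVCR2 among them, by symbol from GENCODE, which was on another build and gave no coordinates. Promoters of 9 of the 10 genes matched the promoter table. Exons and introns were not analysed here. The background level was solved from the smallest fold and −log10 p of each list as a Poisson mean. Since depth is otherwise unknown, the precision of a covered length is unknown too. The code was tested on simulated peaks. Named genes are the 10 antigens, the nearest gene on each side, and from each further list the 3 genes with the longest control length and the 3 with the highest kept share. CEACAM1, LGALS9, PVR, IL1B, CD200R1 and the genes with no peak were named after their values were seen, as were single marker genes. Results for some marker and partner genes are not reported here. The antigens and lists were chosen with earlier results of these data known. Alternatives were a −log10 q of at least 5, a common −log10 p cutoff, equal covered length, overlap of at least 50% of a peak, 1 kb around the 5′ end, promoter-table starts and flanks of 0 and 50 kb.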

Additional observations from a re-analysis of the deposited data

How the results depend on the processing

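Each condition has 1 library, so that counting error is the one error known, and the lists give no read totals. No paired analysis was possible because there is a single library of each kind. Of 21 pooled values under an alternative setting, 13 stayed within 1.5 times the reported value or, for the share of control peaks, within its counting error, and 8 moved. With peaks of a −log10 q of at least 5 in both lists, 2 of 2 genes with a control peak (CD33 and IL1RAP) had a shorter covered length, 0% of the control length away from the 5′ ends was kept, and 0% of 2 control peaks. No SNDX-50469 peak at the antigen genes reached this value, so these outcomes were fixed by the setting and carry no further information. With a common −log10 p cutoff, the kept share was 5.79% near the 5′ ends and 5.51% over the rest, 16.7% of 30 control peaks were kept, and 7 of 8 genes had a shorter covered length, beside 96.9% of all genes. The kept share within 1 kb of the 5′ ends was 10.2%, and 1.10% of control peaks had at least 50% of their length covered. With starts from the promoter table, 3 genes were covered near the start in both lists, CD33 in addition to CD47 and IL1RAP. Trimming the control list to equal covered length left no control peak at the antigen genes and so no kept share, and no peak near the 5′ ends had a −log10 q of 5 or more. Of 28 values at single genes, 12 moved, among them CD33 (0 to 6.73%), CD96 (0 to 7.79%), CLEC12A (11.6% with 50 kb flanks) and CD47 (4.98% with 50 kb flanks). CD44 and CD38 kept 0% wherever a value could be had. However, just 3 of 38 control peaks at CD44 and 1 of 11 at CD38 had a −log10 p above the smallest of the SNDX-50469 list.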

Other observations

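The surroundings of the antigen genes held further H3K27Ac coverage. With 50 kb instead of 5 kb on both sides, CD200, which had no peak of its own, had 13136 bp in control and 100 bp following SNDX-50469 treatment, with none of it kept. CD34 had 38243 and 1100 bp with 2.61% kept, so most of the control coverage around CD34 lay more than 5 kb from the gene. CLEC12A had 10494 and 1595 bp with 11.6% kept, the highest share of the 10 genes at this distance. CD44 and CD38, with 36041 and 20787 bp in control, had 279 and 298 bp after treatment and none kept.

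Among the nearest neighbours, SIGLEC7, a sialic acid-binding receptor of the same family as CD33, lies 57.6 kb from it and had 8822 bp within 5 kb of its 5′ end in control and 2833 bp following treatment. Its kept share there was 32.1%, against 8.06% of 8710 bp at SIGLECL1, 6.32 kb on the other side. At the outermost 5′ end of CD33 none of 5966 bp was kept, and from its RefSeq promoter start 1.72% of 6793 bp. The length kept at SIGLECL1 comes from the SNDX-50469 peaks of 330 and 372 bp. These lie wholly or in part in the 5 kb flank of CD33 and were counted there too. BST1, a NAD-consuming ectoenzyme related to CD38 and 4.16 kb from it, had 13464 bp covered over the gene and its flanks in control and 458 bp after treatment with none kept, as at CD38. The 5 kb flanks of BST1 and CD38 overlap, so part of the control length was counted at both genes. BTLA, an inhibitory lymphocyte receptor gene and the neighbour of CD200 at 101 kb, had 25635 bp in control and none after treatment. IFT57, the neighbour of CD47, kept 8.64% of 5335 bp near its 5′ end, and MED7, the neighbour of HAVCR2, kept 9.53% of 3115 bp. These differences have no replicate check, and no test was made.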
